A study of Mus musculus with 4 samples.

Results

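The proteasome family was taken as every gene represented by a probe whose name in the scanner tables starts with Psma, Psmb, Psmc, Psmd, Psme, Psmf or Psmg followed by a digit. The rule found 67 probes for 44 genes, of 27670 gene names on the array. These included the 5 genes of the immunoproteasome and its activator (Psmb8, Psmb9, Psmb10, Psme1 and Psme2) and 39 others. All 44 genes entered the test, and the probe standing for each was well above background in both channels of all 4 arrays. One of them, Psmc3ip, matches the rule by name only: it encodes a cofactor of meiotic recombination that binds a proteasome ATPase and is no proteasome subunit.

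The study compared the brains of male C57BL/6J mice, 8 to 12 weeks old, after permanent middle cerebral artery occlusion (PMCAO, a filament stroke model) with those of sham-operated mice in which the carotid artery was exposed and no filament placed. Sham and PMCAO mice alike were anesthetized with isoflurane and received saline into a cerebral ventricle, and RNA was taken 6 h and 24 h later from groups of 3 mice. The series' design text says that the hemisphere opposite the occlusion was put on the arrays, whereas the sample labels name only brain. Each of 4 two-colour arrays carried PMCAO RNA in one dye and sham RNA in the other, with 2 arrays of opposite dye orientation per time (sample 1 with PMCAO in Cy5, sample 2 with PMCAO in Cy3). The labels do not say whether samples 1 and 2 hold separate RNA or how the mice of a group were combined. A p-value here therefore reflects the scatter between arrays alone, possibly a technical one. The reported model has no dye term, so this scatter between arrays of opposite orientation includes any dye effect. Deviations of same-numbered arrays from the mean of their time correlated at 0.72 across genes. The part of a dye effect in the scatter was not tested.

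The proteasome degrades proteins tagged with ubiquitin. Its barrel-shaped core is built of rings of alpha and beta subunits, and the beta subunits Psmb5, Psmb6 and Psmb7 carry the catalytic sites. A regulatory cap of ATPases (Psmc genes) and other subunits (most Psmd genes) binds, unfolds and feeds in the tagged proteins. Under interferon gamma and other inflammatory signals cells make the inducible catalytic subunits Psmb8, Psmb9 and Psmb10, which take the places of Psmb5, Psmb6 and Psmb7 in newly built particles, and the alpha and beta chains of the activator PA28 (Psme1 and Psme2). The resulting immunoproteasome is known for cutting peptides that MHC class I molecules present, and in brain it is known mainly from microglia and from invading leukocytes.

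The stretch upstream of the start is shown for 4 members: Psmb8 and Psmf1, the members that passed the test at 24 h, Psmb5, whose place Psmb8 takes in the particle, and Psmb9, Psmb8's neighbour on chromosome 17. RefSeq promoter windows (GRCm38.p6, 250 bases before to 50 after a start) were found for 37 of the 44 genes. They were searched on both strands for the core of the interferon-stimulated response element (GAAANNGAAA), the interferon gamma-activated site (TTCNNNGAA) and the core of the antioxidant response element (TGACNNNGC). Each stretch below is written 5′ to 3′ on the gene's strand, with a match of any of these motifs in capitals. The coordinates are chr17:34197945-34198194 (plus strand) for Psmb8, chr17:34187331-34187580 (minus) for Psmb9, chr2:151741311-151741560 (minus) for Psmf1 and chr14:54617996-54618245 (minus) for Psmb5.
Psmb8: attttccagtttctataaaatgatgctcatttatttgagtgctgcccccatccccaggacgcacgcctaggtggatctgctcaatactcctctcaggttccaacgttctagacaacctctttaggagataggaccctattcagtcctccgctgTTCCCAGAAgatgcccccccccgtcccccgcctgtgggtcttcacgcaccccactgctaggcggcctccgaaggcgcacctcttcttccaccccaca
Psmb9: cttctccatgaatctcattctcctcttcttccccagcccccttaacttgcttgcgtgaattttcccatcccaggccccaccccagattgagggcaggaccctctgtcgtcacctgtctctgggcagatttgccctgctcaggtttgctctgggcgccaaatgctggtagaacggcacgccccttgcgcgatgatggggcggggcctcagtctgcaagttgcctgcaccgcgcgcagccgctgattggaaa
Psmf1: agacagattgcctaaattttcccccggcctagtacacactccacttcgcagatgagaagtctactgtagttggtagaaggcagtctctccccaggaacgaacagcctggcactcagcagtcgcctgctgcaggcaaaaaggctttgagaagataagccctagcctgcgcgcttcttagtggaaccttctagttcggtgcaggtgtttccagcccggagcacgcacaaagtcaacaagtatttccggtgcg
Psmb5: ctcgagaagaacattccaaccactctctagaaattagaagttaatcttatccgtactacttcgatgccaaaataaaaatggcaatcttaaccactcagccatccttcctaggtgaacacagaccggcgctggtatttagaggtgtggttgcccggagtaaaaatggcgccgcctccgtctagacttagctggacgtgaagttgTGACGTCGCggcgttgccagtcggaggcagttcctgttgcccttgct

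In these stretches Psmb8 has 1 match, TTCCCAGAA of the interferon gamma-activated site, and Psmb5 has 1 match, TGACGTCGC of the antioxidant core. Psmb9 and Psmf1 have none, which says only that these letters are not in this window. The Psmb9 stretch lies head to head with the gene Tap1, whose own upstream stretch (chr17:34187306-34187555, plus strand) overlaps it on the other strand. Of the 37 genes with a window, 4 held the interferon-stimulated core (Psmb3, Psmd4, Psmd9 and Psme1), against 3.44% of all 32851 windows. The interferon gamma-activated site was in 2 (Psmb8 and Psmd2), against 8.3% of all windows. The antioxidant core was in 6 (Psmb5, Psmb6, Psmc6, Psmd9, Psmd12 and Psme4), against 12.4% of all windows. In no member did matches of different motifs overlap. A match is a description of the letters, not a binding site.

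At 24 h, 2 of the 44 members were higher in PMCAO than in sham and 0 were lower (limma, Benjamini-Hochberg adjusted p under 0.05 over 19127 genes). They were Psmb8, the inducible counterpart of Psmb5, at 1.47-fold and Psmf1, which encodes PI31, a protein that binds the core particle and inhibits it in the test tube, at 1.38-fold. Over all genes tested 7.84% were higher and 4.52% lower at 24 h. Arrays of the same sample number share a dye orientation, and with that number as a block in the model 12 members were called higher and 1 lower at 24 h, against 20.5% of all genes higher and 19.3% lower. At 6 h, 0 members passed in either direction, against 0.816% of all genes higher and 0.0366% lower, and with the block 1 was higher and 1 lower, against 5.91% and 2.99% of all genes. Before adjustment, at p under 0.05, limma put 9 members up and 0 down at 24 h, against 15.5% of all genes up and 13.3% down. At 6 h it put 1 up (Psme4) and 2 down (Psmb9 and Psmc3ip), against 6.16% and 2.58% of all genes. The 9 of 24 h were Psmb8, Psmf1, Psme3, Psme4, Psmd9, Psmb2, Psma3, Psma6 and Psma8.

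**Figure D1:**
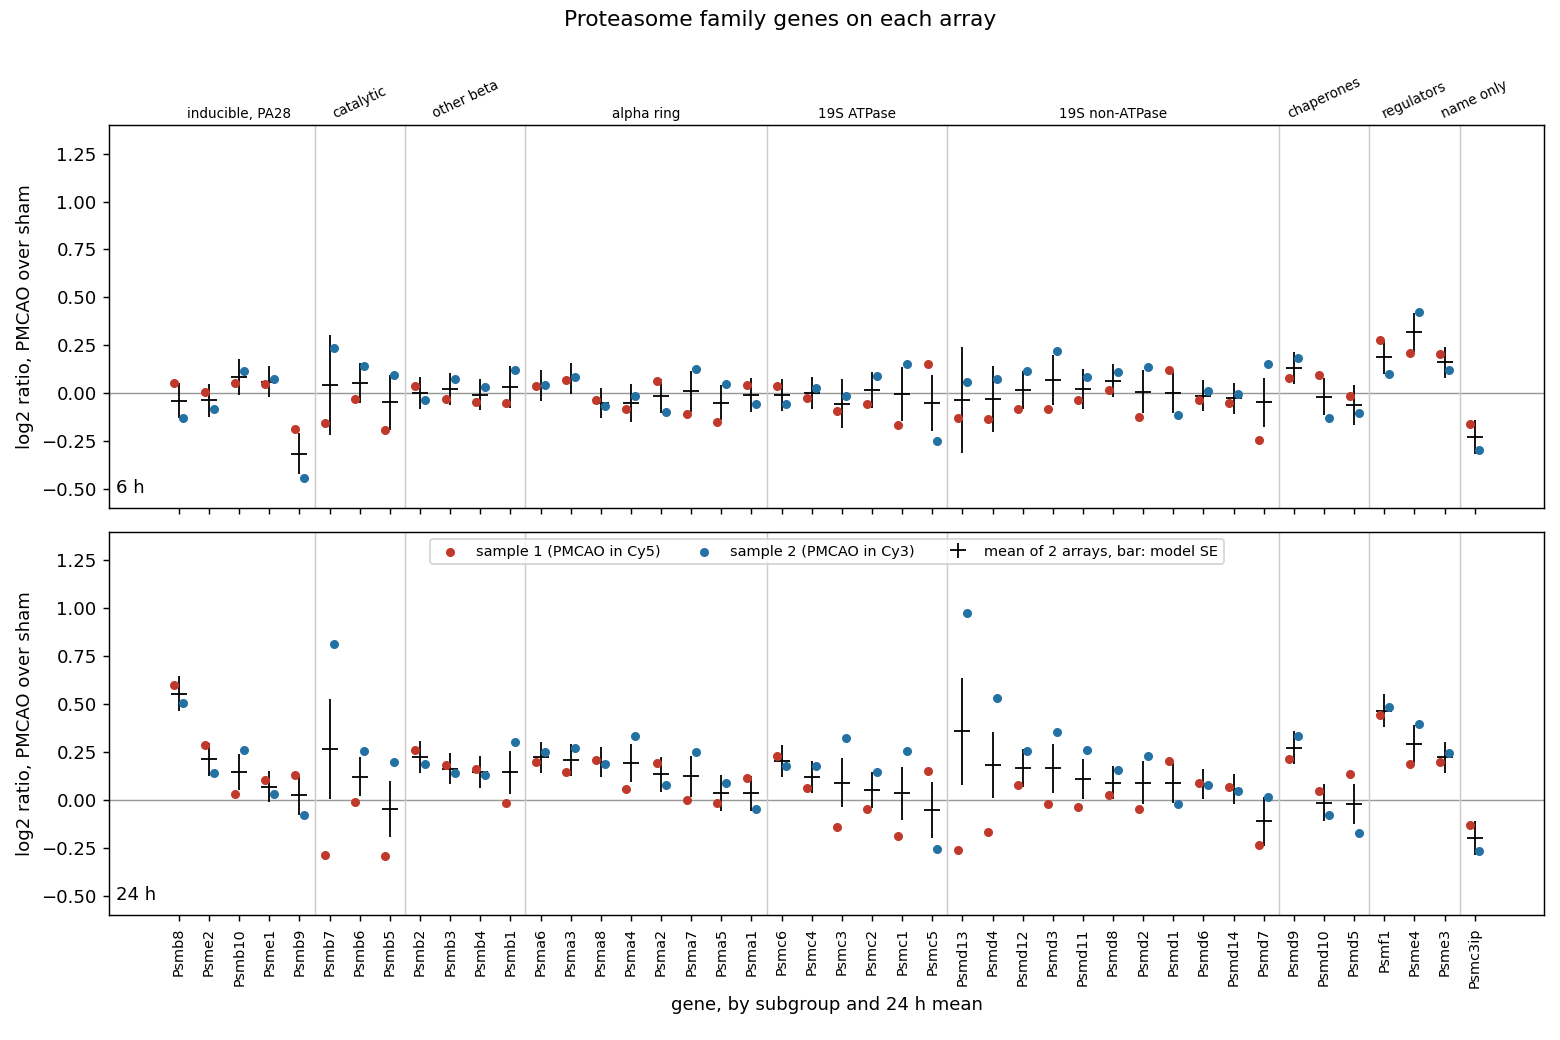
Log2 ratio of PMCAO over sham (vertical axis) for the 44 family genes, by subgroup, at 6 h (upper panel) and 24 h (lower panel). Points are the single arrays (red: sample 1, blue: sample 2) and black bars the mean of 2 arrays with the standard error of the model. Psmb8 stands at 0.55 and Psmf1 at 0.47 at 24 h with both arrays close together, while the arrays of Psmb7 and Psmd13 lie far apart.

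Psmb8 had log2 ratios of 0.05 and -0.13 on samples 1 and 2 of 6 h, and of 0.60 and 0.51 on samples 1 and 2 of 24 h. Both 24 h arrays lay above both 6 h arrays. The log2 intensity of its probe, after normalisation between arrays, was 9.42 in both sham channels of 6 h, 9.52 in both sham channels of 24 h, 9.48 and 9.30 in PMCAO at 6 h, and 10.12 and 10.03 in PMCAO at 24 h. Both PMCAO channels of 24 h lay above every sham channel, while at 6 h sample 1 lay above both sham channels and sample 2 below them. The mean log2 ratio at 24 h was 0.55 ± 0.09 (model SE, n = 2 arrays, 95% interval 0.33 to 0.78, limma adjusted p = 0.0187). At 6 h it was -0.04 ± 0.09, and the 24 h minus 6 h difference of 0.59 ± 0.13 did not pass the test (limma adjusted p = 0.109). With the sample number as a block, the difference was called at the same value (limma adjusted p = 0.00217). The other Psmb8 probe, at mm7 coordinates chr17:32280668-32280727 next to the first at chr17:32280725-32281049, had a 24 h mean of 0.52.

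Psmb9 and Psmb10, the other inducible catalytic subunits, did not pass the test at either time. Psmb9 had ratios of -0.19 and -0.44 at 6 h and of 0.13 and -0.08 at 24 h. Its 6 h mean of -0.31 ± 0.11 was the lowest of the family and had a limma adjusted p of 0.448, while its 24 h mean was 0.03, with a 95% interval of -0.24 to 0.29. That interval ends below the lower bound of 0.33 for Psmb8, but the difference between the genes was not tested. With either 24 h array left out, Psmb9 was called lower at 6 h at the same value (adjusted p = 0.0299), with the spread then taken from the 6 h arrays alone. Psmb10 had ratios of 0.06 and 0.12 at 6 h and of 0.03 and 0.26 at 24 h, with a 24 h mean of 0.15 (95% interval -0.09 to 0.38). Its log2 intensity in the sham channels was 14.42 and 14.40 at 6 h and 14.22 and 14.13 at 24 h, so the control itself was lower at the later time by 0.23 (limma adjusted p = 0.123).

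Psme1 and Psme2, the alpha and beta chains of PA28, a ring that caps the core particle without ATP, lay close to 0 at 6 h. Psme1 had 24 h ratios of 0.11 and 0.03, with a mean of 0.07 (95% interval -0.13 to 0.27). Psme2 had 24 h ratios of 0.29 and 0.14, with a mean of 0.21 (95% interval -0.0042 to 0.43, limma adjusted p = 0.18), and its other probe averaged 0.23. Both Psme2 probes are named in the scanner tables for the copy Psme2b and are placed beside Psme1 on chromosome 14 in mm7. They were set to Psme2 by this position, not by a match in the RefSeq table. Signal of the near-identical copy therefore cannot be told apart from Psme2.

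**Figure D2:**
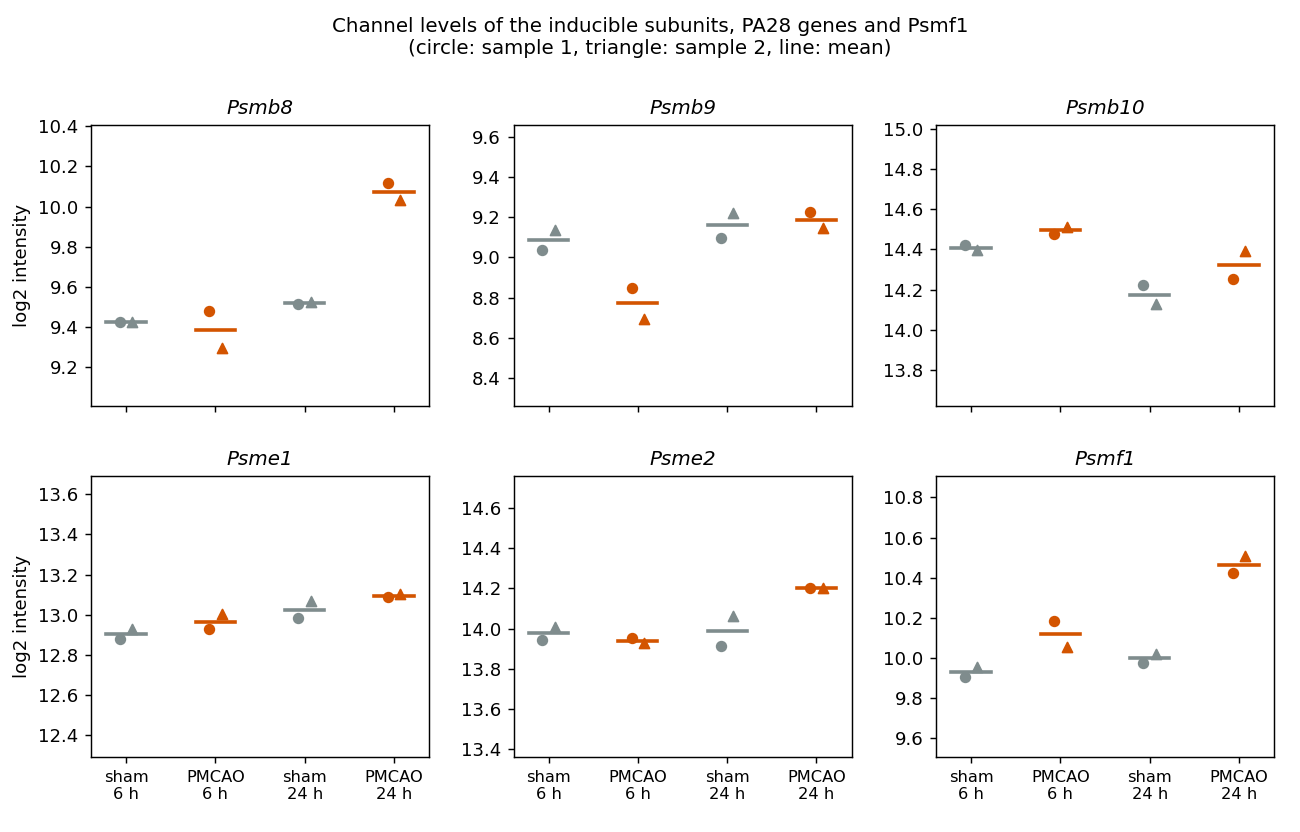
Log2 intensity of each channel (vertical axis, each panel spanning the same range of 1.4) for the inducible subunits Psmb8, Psmb9 and Psmb10, the PA28 genes Psme1 and Psme2, and Psmf1, in sham (grey) and PMCAO (orange) at 6 h and 24 h. Circles are sample 1, triangles sample 2 and lines the mean. PMCAO at 24 h reached 10.12 and 10.03 for Psmb8, against 9.52 in both sham channels.

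The constitutive subunits that the inducible ones replace showed no common direction. At 24 h Psmb5 had ratios of -0.29 and 0.20, Psmb6 of -0.01 and 0.26, and Psmb7 of -0.28 and 0.82. In each of the 3 the arrays had opposite signs at both times, sample 1 below 0 and sample 2 above it. Their 24 h means were -0.05, 0.12 and 0.27, and 0 of 3 passed the test (0 of 3 also at an unadjusted p under 0.05). For Psmb7 the 95% interval ran from -0.38 to 0.92, wide enough to hold a change as large as that of Psmb8 in the same direction.

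Set against the other 39 members, the 5 immunoproteasome genes had the higher median on sample 1 and the lower on sample 2, at both times. Their median log2 ratio minus that of the other 39 was 0.08 and -0.15 on samples 1 and 2 of 6 h and 0.07 and -0.06 on samples 1 and 2 of 24 h. With the arrays of a time averaged first, the value was -0.04 at 6 h and 0.02 at 24 h. For the 24 h minus 6 h difference it was 0.15, from medians of 0.25 for the 5 genes and 0.10 for the other 39, but -0.0091 without sample 1 of 24 h and 0.04 without sample 2 of 6 h. All 5 immunoproteasome genes had 24 h means above 0 (2 of 5 with median centring of each array in place of loess, where Psmb9, Psmb10 and Psme1 were at -0.07, -0.03 and -0.10). Of the 5 genes 1 was called higher at 24 h, and of the other 39 also 1, against 7.84% of all genes. With so few genes called, these counts do not set the 5 apart from the 39.

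Psmf1 had log2 ratios of 0.28 and 0.10 at 6 h and of 0.45 and 0.49 at 24 h. Its log2 intensity was 9.98 and 10.02 in the sham channels of 24 h and 10.42 and 10.51 in the PMCAO channels. The mean at 24 h was 0.47 ± 0.09 (model SE, n = 2 arrays, limma adjusted p = 0.0281), and the difference from 6 h was 0.28 ± 0.12 (adjusted p = 0.41). The 3 probes for Psmf1 did not give 1 value. The reported, brightest probe lies at mm7 chr2:151457941-151458000. A probe at chr2:151470474-151470533, of another transcript accession, read -0.02 and 0.91 on samples 1 and 2 of 24 h, and one at chr2:151457117-151457176 read 0.12 and 0.18. With the mean of the 3 probes the 24 h value fell to 0.35 and out of the call (adjusted p = 0.0857), and with either 6 h array left out it kept its value but not the call (adjusted p = 0.0568), which left Psmb8 as the 1 member called at 24 h.

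Psme3 and Psme4 encode further caps of the core particle, PA28 gamma of the nucleus and PA200. Psme4 had the family's highest 6 h value, with ratios of 0.21 and 0.43, and kept 0.19 and 0.40 at 24 h. The means of 0.32 ± 0.10 and 0.29 ± 0.10 did not pass the test (limma adjusted p = 0.407 and 0.13). With either 24 h array left out, the 6 h value was called (adjusted p = 0.0266). Psme3 had 0.20 and 0.12 at 6 h and 0.20 and 0.24 at 24 h. By their reported probes, the 3 regulators outside PA28 alpha and beta (Psme3, Psme4 and Psmf1) were above 0 on all 4 arrays. Their median was 0.19 at 6 h and 0.29 at 24 h, and their means stayed above 0 with median centring, at medians of 0.20 and 0.12. The Psmf1 probe at chr2:151457117-151457176 read -0.01 and -0.03 at 6 h. That at chr2:151470474-151470533 read -0.0037 and 0.38 at 6 h and -0.02 on sample 1 of 24 h.

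The remaining subunits of the core and the cap mostly lay between 0 and 0.2 at 24 h. The 8 alpha ring genes had 24 h means from 0.03 (Psma1) to 0.22 (Psma6), with a median of 0.16. All 8 were above 0 (4 of 8 with median centring in place of loess). Of the 8, 0 passed the test and 3 were higher at an unadjusted limma p under 0.05, against 15.5% of all genes. Among these 3 was Psma8, whose reported probe was the dimmest of the family in every channel, though well above background. The other beta subunits Psmb1, Psmb2, Psmb3 and Psmb4 lay between 0.14 and 0.22, all above 0 (1 of 4 with median centring). The 6 ATPases of the cap had a median of 0.07, from -0.05 for Psmc5 to 0.20 for Psmc6, and the 11 non-ATPase subunits of the cap a median of 0.09, from -0.11 for Psmd7 to 0.36 for Psmd13, and with median centring these medians turned to -0.10 and -0.07. Of these 17 genes of the cap 0 passed the test (0 also unadjusted). The dedicated assembly chaperones Psmd5 and Psmd10 were at -0.02 and -0.01, and the chaperone Psmd9 at 0.27 ± 0.09 (limma adjusted p = 0.105), with both of its probes at 0.24 or more. Psmc3ip, the gene that shares only the name, was below 0 on all 4 arrays, between -0.30 and -0.13.

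Across the family the median log2 ratio was -0.0011 at 6 h and 0.13 at 24 h, beside -0.0051 and 0.00082 over all genes tested. At 24 h 38 of 44 members were above 0, and at 6 h 22 of 44, but with median centring of each array in place of loess the 24 h count turned to 15 of 44 with a family median of -0.05, against -0.09 over all genes, and the 6 h count to 37 of 44. On single 24 h arrays the other 39 members were above 0 in 24 cases on sample 1 and 33 on sample 2, and 23 of all 44 were above 0 on both arrays. The test of the 24 h minus 6 h difference passed for 0 of 44 members in either direction (1 higher at an unadjusted p under 0.05, Psmb8), against 1.29% of all genes higher and 0.298% lower (7.68% and 6.51% unadjusted). With the block, 2 members (Psmb8 and Psmb9) were higher in this difference and 0 lower, against 8.81% and 8% of all genes. Psma4, Psma8 and Psmd14 were below 0 on both 6 h arrays and above 0 on both 24 h arrays, with differences of 0.24, 0.25 and 0.08 that did not pass (limma adjusted p = 0.539, 0.417 and 0.844). Of the 44 reported probes, that of Psma8 was the dimmest.

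**Figure D3:**
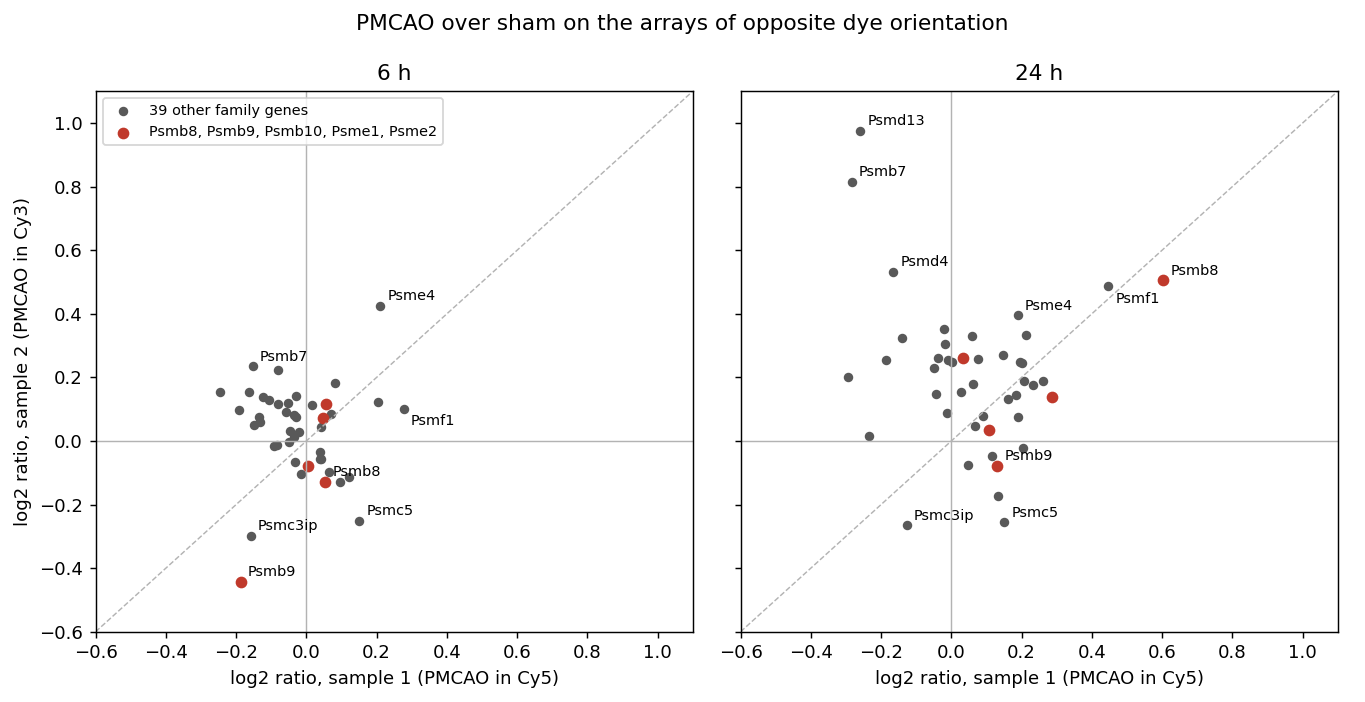
Log2 ratio of PMCAO over sham on sample 1 (horizontal axis, PMCAO in Cy5) against sample 2 (vertical axis, PMCAO in Cy3) for the 44 family genes at 6 h (left) and 24 h (right). Red points are Psmb8, Psmb9, Psmb10, Psme1 and Psme2, and the dashed line marks equal values. At 24 h Psmb8 and Psmf1 lie near that line, while Psmd13 (-0.26 and 0.98) and Psmb7 (-0.28 and 0.82) lie far above it.

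Some members read apart on the 2 arrays of 24 h. Psmd13, a non-ATPase subunit of the cap, read -0.26 on sample 1 and 0.98 on sample 2, and Psmd4, a ubiquitin receptor of the cap, read -0.17 and 0.53. The probes of a gene could part as well. For Psmc5 the reported probe read 0.15 and -0.26 at 24 h and the other probe -0.33 and 0.59. Because sample 1 and sample 2 differ in dye orientation, a dye effect cancels in their mean but not when 1 of them is left out. With 1 array of 24 h left out, that time has a single array, which is assumed to vary like the 6 h arrays, the only source of the spread. For these fits only sizes are given here. Without sample 1 of 24 h the family median at 24 h was 0.20, with 37 of 44 members above 0. Without sample 2 of 24 h it was 0.07, with 29 of 44 above 0. Over all genes tested the medians were -0.02 and 0.02.

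Other genes of the pathway that do not carry a family name were read from lists. Of 10 tested regulators of proteasome genes, 3 were higher at 24 h and 0 lower, against 7.84% and 4.52% of all genes. At an unadjusted p under 0.05, 5 were higher at 24 h and 1 at 6 h, against 15.5% and 6.16% of all genes. With the reported processing 0 were called at 6 h, while Tnf was called higher there under some alternatives. Its 6 h value was 2.657 with the scanner's log ratio, so the size for Tnf depended on the processing. Of the 10 regulators, 9 stayed when probes had to be well above background in every channel. Their 24 h median was then 0.21, against 0.25 for the 10. The 24 h ratios on samples 1 and 2 were 0.93 and 0.78 for Irf1, an interferon-induced transcription factor of Psmb8 and Psmb9, and 1.26 and 1.35 for Tnf, an inflammatory cytokine. They were 0.86 and 0.68 for Nfe2l2, the transcription factor of the antioxidant response. The means were 0.85, 1.30 and 0.77 (limma adjusted p = 0.00403, 0.00109 and 0.00647). Nfe2l1, the factor that raises proteasome genes when the proteasome is blocked, was at 0.0031. Of 16 tested partners of the proteasome, such as the ubiquitin receptor Adrm1 and the assembly factor Pomp, 0 were called at 24 h (2 higher at an unadjusted p under 0.05), and of 12 genes of ubiquitin and its activation 0 (1 lower unadjusted).

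Of the 10 genes that load peptides onto MHC class I, 7 were higher at 24 h and 1 at 6 h at an unadjusted p under 0.05. The shares of all genes were 15.5% and 6.16%. After adjustment 0 were called at 6 h. At 24 h 3 of 10 were called higher and 0 lower, against 7.84% and 4.52% of all genes, with a list median of 0.31. They were Tap1, a chain of the peptide transporter, with ratios of 0.40 and 0.73 and a mean of 0.56 ± 0.11 (limma adjusted p = 0.0275), and the class I heavy chains H2-K1 at 0.88 and H2-D1 at 1.00. Tap1 lies head to head with Psmb9, which was at 0.13 and -0.08 on the same arrays. The difference between these neighbours was not tested. The probes of the H2 genes can share sequence with other class I genes, so their values are uncertain.

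In a bulk sample, fewer cells of a type and less RNA per cell cannot be told apart. Markers of other cells moved with the 24 h comparison. The summed level of 9 tested neutrophil and monocyte markers ranged from 15.97 to 16.2 in PMCAO at 24 h, against 10.94 to 11.08 in sham (log2 intensity), and at 6 h from 13.67 to 13.78 against 11.52 to 11.67. Of these 9, 6 were called higher at 24 h. Only 6 of the 11 on the array were well above background in all 8 channels, so some of the 9 entered the test through part of the groups. The summed level of 12 microglia and macrophage markers lay between 15.29 and 15.59 in all 8 channels, with 2 of 12 higher and 2 lower at 24 h. Of the 5 lymphocyte markers tested 0 were called at 24 h (1 lower at an unadjusted p under 0.05), and 6 of the 14 on the array, among them Cd3g, Cd8a and Cd79a, were not well above background in any channel. At 24 h 4 of 9 endothelial markers were called higher and 1 lower, 2 of 6 astrocyte markers and 1 of 2 red blood cell markers higher, and 0 of 6 oligodendrocyte and 0 of 9 neuron markers in either direction (1 and 0 unadjusted). Beside all these marker counts, 7.84% of all genes were called higher and 4.52% lower at 24 h (15.5% and 13.3% unadjusted). The part of these cells in the Psmb8 and Psmf1 results was not tested. All 9 neuron markers, of the labelled tissue, were well above background in all 8 channels.

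Sham at 24 h against sham at 6 h was tested in the single channels. Of the 44 members 0 passed (limma separate-channel model). Without adjustment, 0 had a p under 0.05 in the higher direction and 3 in the lower, Psmb2, Psmb10 and Psmc3ip. The share called over all genes was 3.6% in either direction. With an array left out, a time keeps a single sham channel, so calls from those fits are given only as a range, in the section on processing. For Psmb8 the sham difference was 0.10 and for Psmf1 0.07.

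The genes whose 4 array ratios lay nearest to those of Psmb8 (Euclidean distance over the 4 arrays, members left out) were Eef1akmt4, Esyt1, Rab44 and Glycam1, at distances of 0.0784 to 0.085. Within the family the nearest was Psmf1, at 0.357. Family genes that the scanner tables list under older names, and the rule therefore did not take (Psmb11, Psmg1, Psmg2 and Psmg3), had 24 h values between 0.0024 and 0.27, with limma adjusted p from 0.28 to 0.99.

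**Figure D4:**
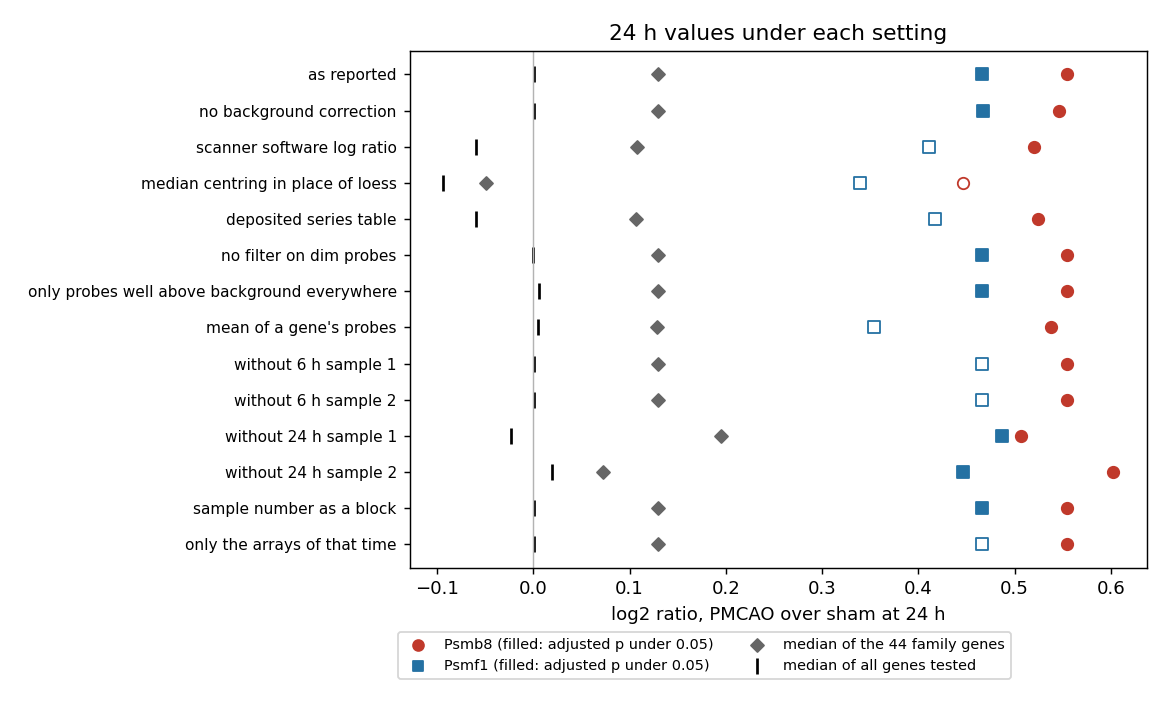
Log2 ratio of PMCAO over sham at 24 h (horizontal axis) under the reported processing and each alternative (vertical axis) for Psmb8 (red circles) and Psmf1 (blue squares), filled where the limma adjusted p was under 0.05. Grey diamonds are the median of the 44 members and black ticks that of all genes tested. Psmb8 lay between 0.45 and 0.60 and lost the call under median centring, where the family median fell below 0.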

How the data were processed

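PMCAO and sham brain RNA was hybridised together on 4 two-colour arrays. Spot intensity values and log10 ratios (Cy5 over Cy3) were written by Agilent Feature Extraction 9.5.3.1, as the deposited scanner tables state in their headers. In the deposited series table each probe has 1 ratio, equal in size to processed Cy5 over Cy3 signal within 0.006. The meaning of its sign and any centring stay unknown, and its column medians were -0.96 and 0.96 at 6 h, and -0.91 and 0.95 at 24 h. Probe coordinates are those of mm7, per the file headers.

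In limma 3.58.1 (R 4.3.3), mean signals underwent normexp correction (offset 50), then loess per array with zero-weighted control spots. Spots flagged as outliers were dropped (112 to 142 on each array), while saturated spots (0 to 2) stayed. Ratios were turned to PMCAO over sham. The brightest probe represented a gene, which was tested if well above background on both arrays of any of the 4 groups (19127 of 27670 names). Probes were named through a RefSeq table by accession (22951 of 41174), symbol (6659) or older symbol (3109), and otherwise as in the files. Both Psme2 probes were set to that gene by their position. A model of all 4 arrays (2 residual and 3.53 prior degrees of freedom) estimated each time and their difference, adjusted by Benjamini-Hochberg at 0.05, and was tested on simulated data. Sham channels were compared after Aquantile normalisation with separate channels (intraspot correlation -0.413). A single slide and scan held every array, so batches could not be tested, and the number of arrays limits precision.

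Alternatives covered background correction, normalisation, filters, probe choice, arrays left out and the sample number as a block. Members and lists were chosen with earlier results of these data known. Any member may be named, with full statistics for the immunoproteasome genes, their constitutive counterparts and the 8 highest and 8 lowest members of each comparison. Genes of other lists named without passing the test, and the uncertain probes described, were chosen after their values were seen.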

Additional observations from a re-analysis of the deposited data

Results flagged for a closer look

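For 2 regulators of proteasome genes the effect of PMCAO differed between the times by the test of the difference itself. For Nfe2l2 the 24 h minus 6 h difference in log2 ratio was 0.87 ± 0.13 (limma adjusted p = 0.0441), with ratios of -0.06 and -0.15 at 6 h and of 0.86 and 0.68 at 24 h. It lost the call with either 6 h array left out (0.92 without sample 1 and 0.83 without sample 2, adjusted p = 0.156 and 0.232). For Tnf the difference was 1.08 ± 0.13 (adjusted p = 0.0255), with ratios of 0.14 and 0.31 at 6 h and of 1.26 and 1.35 at 24 h, and it lost the call without sample 1 of 6 h (adjusted p = 0.0986). Nfe2l2 also lost it under 6 of the processing alternatives and Tnf under 3. With the mean of a gene's probes the Nfe2l2 difference fell to 0.53 (limma adjusted p = 0.146). The 6 h value of Tnf depended on the processing. It rose to 2.657 with the scanner's log ratio and 2.665 with the deposited series table, and was called higher in both (limma adjusted p = 0.0115 and 0.0109).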

How the results depend on the processing

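Psmb8 at 24 h kept its direction under all 13 alternatives and its call under all but median centring in place of loess (0.45, adjusted p = 1), where Irf1, Nfe2l2, Tnf, Tap1, H2-K1 and H2-D1 lost theirs too. The 2 members called higher at 24 h became 1 (Psmb8) with the scanner's log ratio, the deposited series table, the mean of a gene's probes or only the arrays of that time, and 0 with median centring. Only the arrays of that time gave 1 higher (Psme4) and 1 lower (Psmb9) at 6 h. With arrays left out in turn, members called ranged from 0 to 1 higher and 0 to 1 lower at 6 h, 1 to 7 higher at 24 h, 0 to 4 higher in the difference and 0 to 3 in sham. The immunoproteasome median minus that of the others then ran from -0.15 to 0.08 at 6 h, -0.06 to 0.07 at 24 h and -0.0091 to 0.26 in the difference. Each of these fits leaves 1 time with a single array, so a call there rests on the spread of the other time. Over all genes, too, more were called without a 24 h array and fewer without a 6 h array. The ranges of calls are therefore not particular to the family. The causes were not tested.

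The sample number as a replicate block, which is also the dye orientation, gave 1 higher and 1 lower at 6 h, 12 higher and 1 lower (Psmc3ip) at 24 h, and 2 higher (Psmb8 and Psmb9) in the difference. Deviations of same-numbered arrays correlated at 0.72 across genes, but with a pair of numbers the labels and data do not show paired mice.

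Over all genes at 24 h, 1499 were called higher and 864 lower as reported, 1242 and 1166 with the scanner's log ratio, 1235 and 1156 with the series table, 13 and 0 with median centring, and 3913 and 3683 with the block. Median centring put the median of all genes at -0.09 at 24 h and -0.10 in the difference and called 0 genes at 6 h. At 6 h 156 and 7 became 940 and 354 with only that time's arrays and 1131 and 571 with the block. In the difference 246 and 57 became 54 and 8, 51 and 7, 0 and 0, and 1685 and 1530 with the scanner's ratio, the series table, median centring and the block. Of 987 values of single genes under alternatives, 918 kept their side of the threshold, and none that was called changed sign. Among uncalled values 71 changed sign, 37 of them in the difference. No value of the difference exists with only the arrays of 1 time.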
